A study of Homo sapiens with 7 samples.

Results

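CTCF peaks at divergent promoters of coding genes were the peaks centred within 1 kb of the start of either gene of a head-to-head pair. A pair was formed by 2 protein-coding genes on opposite strands, transcribed away from each other from starts at most 1 kb apart. Among 20098 coding genes there were 883 such pairs with 1703 genes, and pairs that shared a gene were joined, which left 821 divergent promoters. The median distance between the starts was 131 bp, with quartiles of 69 and 247 bp and a range of 1 to 995 bp, and 80.7% of the pairs had starts closer than 300 bp. In the peak list of control cells 279 of 33069 peaks lay at these promoters, and in the list of PDS-treated cells 270 of 32893, counting chromosomes 1 to 22 and X.

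The cells were K562, an established human leukaemia cell line. CTCF chromatin immunoprecipitation and sequencing covered 7 samples. Untreated control cells gave 2 CTCF samples and 1 IgG sample, and cells given 10 μM pyridostatin (PDS) for 24 h gave 2 of each kind. PDS is a small molecule that binds and stabilises G-quadruplexes (G4s). The deposited lists give each peak once per condition, called jointly on both CTCF replicates over IgG, so the read depth is unknown, no SD can be given and no test between conditions is possible.

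CTCF is a zinc finger protein that binds DNA through a long, GC-rich recognition sequence, forms boundaries of chromatin loops together with cohesin, and also occupies many gene promoters. Divergent promoters share 1 short, usually CpG-rich stretch of DNA between genes that are transcribed in opposite directions, and they serve many housekeeping genes, among them genes of DNA repair, mitochondria, translation and histones. G4s are four-stranded DNA structures formed by runs of guanines, and sequences able to form them are common in promoters of this kind.

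Sequences from the 200 bp around the centres of peaks named below by their genes are printed here. The reason is that these are among the strongest shared peaks, the strongest peaks of 1 list and the peaks whose rank fell by both fold and p-value. All are plus-strand sequence of GRCh37 (hg19), 5′ to 3′, from the 200 bp around the peak centre, shortened where they ran into untranslated exons. The shortened stretches at NOP10/NUTM1, ATP6V1D/EIF2S1 and IFT25/LRRC42 end before the peak centre itself. The stretch at STX8/CFAP52 extends past its peak, which is 100 bp wide, and that at CCDC148/PKP4 starts before its control peak of 180 bp. Capitals mark a G4 motif (4 runs of guanines, each at least 3 long, with 1 to 7 nt between neighbouring runs, seen as runs of C where the motif is on the minus strand) or, for ATP6V1D/EIF2S1, the match to the CTCF consensus. The stretches lie at chr3:51976161-51976360 between the starts of RRP9 and PARP3, chr15:34635471-34635515 between those of NOP10 and NUTM1, chr14:67826790-67826819 inside ATP6V1D, chr1:54412071-54412097 inside LRRC42, chr17:9480651-9480850 in an intron of CFAP52, and chr2:159313311-159313463 between the starts of CCDC148 and PKP4.
RRP9/PARP3: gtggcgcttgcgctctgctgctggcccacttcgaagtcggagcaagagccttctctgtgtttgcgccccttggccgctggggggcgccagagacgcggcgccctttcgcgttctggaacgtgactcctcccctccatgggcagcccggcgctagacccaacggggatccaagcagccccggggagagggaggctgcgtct
NOP10/NUTM1: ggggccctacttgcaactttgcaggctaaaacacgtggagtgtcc
ATP6V1D/EIF2S1: ttggtcacAGCGCCATCTCATGGttagctg
IFT25/LRRC42: gCCCCCAGCCCCCTCCCTCCTCCCacc
STX8/CFAP52: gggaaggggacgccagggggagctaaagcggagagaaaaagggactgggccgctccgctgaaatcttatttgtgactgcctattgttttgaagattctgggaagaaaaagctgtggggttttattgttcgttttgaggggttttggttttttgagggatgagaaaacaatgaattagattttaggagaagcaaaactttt
CCDC148/PKP4: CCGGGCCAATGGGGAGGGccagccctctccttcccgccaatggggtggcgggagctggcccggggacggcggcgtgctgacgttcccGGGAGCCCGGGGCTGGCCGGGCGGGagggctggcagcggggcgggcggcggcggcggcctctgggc
The stretches of ATP6V1D/EIF2S1 and IFT25/LRRC42 hold their motif on the minus strand, and that of CCDC148/PKP4 holds 2 G4 motifs on the plus strand, the first of which is cut by the edge of the stretch. The other stretches hold neither motif, which says only that these letters are not in these windows. The sequence at ATP6V1D/EIF2S1 was added after its values had been seen.

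Divergent promoters were occupied to a similar extent in both lists. A control peak lay at 258 of 821 promoters (31.4%, Wilson 95% interval 28.3 to 34.7%) and a PDS peak at 246 (29.96%, 26.9 to 33.2%). Both lists had a peak at 227 promoters (27.6%, 24.7 to 30.8%), the control list alone at 31 (3.78%) and the PDS list alone at 19 (2.31%), while 544 (66.3%) had none. Intervals of shares and medians cover counting error only, since peaks are not replicates of a condition. Counted per gene start, 30.1% of the 1703 genes of pairs had a control peak within 1 kb, against 20.1% of the 18395 other coding genes. For the PDS list these shares were 28.9% and 18.9%, and for genes with a peak in both lists 26.5% and 17.2%. The genes of a pair share their peaks, so these counts are not independent of each other.

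Occupancy was listed by the distance between the starts as well. Among the 322 promoters with starts 1 to 100 bp apart, 97 (30.1%) had a control peak and 89 (27.6%) a PDS peak. Among the 97 promoters with starts 401 to 1000 bp apart, 39 (40.2%) and 35 (36.1%) had one. The bins between them lay at 27.3 to 32.4%, and the intervals of all bins overlapped within a list. The window searched grows with the distance between the starts, and its part in these shares was not tested.

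**Figure D1:**
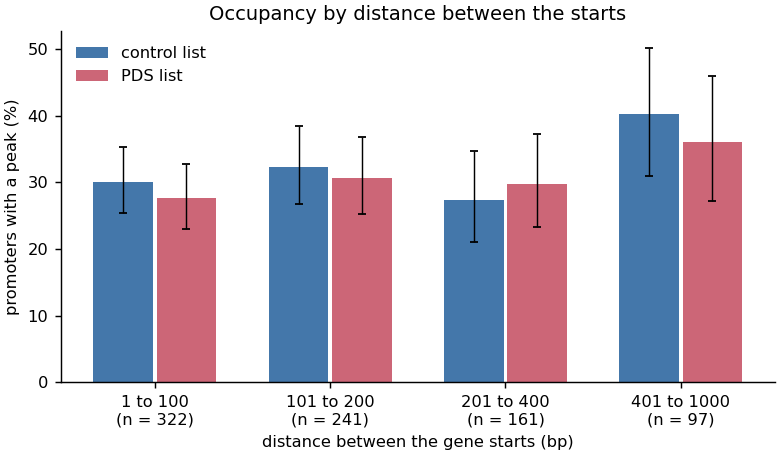
Share of the 821 divergent promoters with a CTCF peak, in percent on the y axis, by the distance between the gene starts in bp on the x axis, with n as the number of promoters in a bin. Bars are the control and PDS lists and error bars Wilson 95% intervals, and the highest bars, 40.2% and 36.1%, are those of 401 to 1000 bp.

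The 1-kb window around the midpoint was also GC-rich at promoters without a peak. Its median GC content was 63.9% where both lists had a peak, 65.9% at control-only promoters, 61.1% at PDS-only promoters and 61.3% where neither list had one. A G4 motif lay in this window at 147 of the 227 promoters with peaks in both lists (64.8%) and at 334 of the 544 with none (61.4%), with overlapping intervals of 58.3 to 70.7% and 57.2 to 65.4%. At promoters of the control list alone 21 of 31 (67.7%) held one and at those of the PDS list alone 8 of 19 (42.1%). The CTCF consensus was found in 9 windows with peaks in both lists (3.96%, 2.10 to 7.36%) and in 8 windows with none (1.47%, 0.75 to 2.87%), again with overlapping intervals.

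Most occupied promoters had a single peak. In the control list 237 had 1 peak and 21 had 2, and in the PDS list 223 had 1, 22 had 2 and 1 had 3. The promoter with 3 PDS peaks was that of LGI4, a secreted protein of the peripheral nerve, and FXYD7, a regulator of the sodium pump. Its first 2 PDS peaks (fold over IgG 20.5 and 14.4) overlapped the 2 control peaks (66.6 and 24.5), and the third was 100 bp wide with a fold of 7.44 and overlapped no control peak. Peaks flanked the midpoint between the starts at 16 of the 21 control promoters with several peaks and at 13 of the 23 PDS promoters. An example with 2 peaks in both lists was VPS35/ORC6, the genes of a retromer subunit and a subunit of the origin recognition complex. There the control folds were 35.6 on the side of VPS35 and 25.7 on that of ORC6, and the PDS folds 11.1 and 11.7. Each fold is over the IgG of its own condition, and the medians over all peaks were 26.5 (control) and 16.7 (PDS). Folds given here and below therefore do not compare occupancy between the lists.

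Peaks at divergent promoters were mostly present in both lists. Of the 279 control peaks 242 (86.7%, 82.3 to 90.2%) overlapped a PDS peak by at least 1 bp, against 78.0% of all control peaks. Of the 270 PDS peaks 243 (90.0%, 85.8 to 93.0%) overlapped a control peak, against 78.6% of all PDS peaks. At other coding gene starts, which held 3720 control and 3556 PDS peaks, the shares were 83.6% and 88.0%, inside the intervals of the divergent promoters. In each list 231 peaks had a single partner that overlapped nothing else.

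Peaks of 1 list were narrow and mostly weak. The 37 control peaks without a PDS partner had a median width of 180 bp against 360 bp for the 242 shared ones, and 34 of them were in the weaker 50% of the control list by p-value. The 27 PDS peaks without a control partner were 100 bp wide at the median, against 350 bp for shared ones, and 26 were in the weaker 50% of the PDS list. Within 1 kb of a peak of the other list were 8 of the 37 and 9 of the 27. At the promoter level, 28 of the 31 control-only promoters had no overlapping PDS peak at all and 3 had one centred further away. Of the 19 PDS-only promoters these were 18 and 1.

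**Figure D2:**
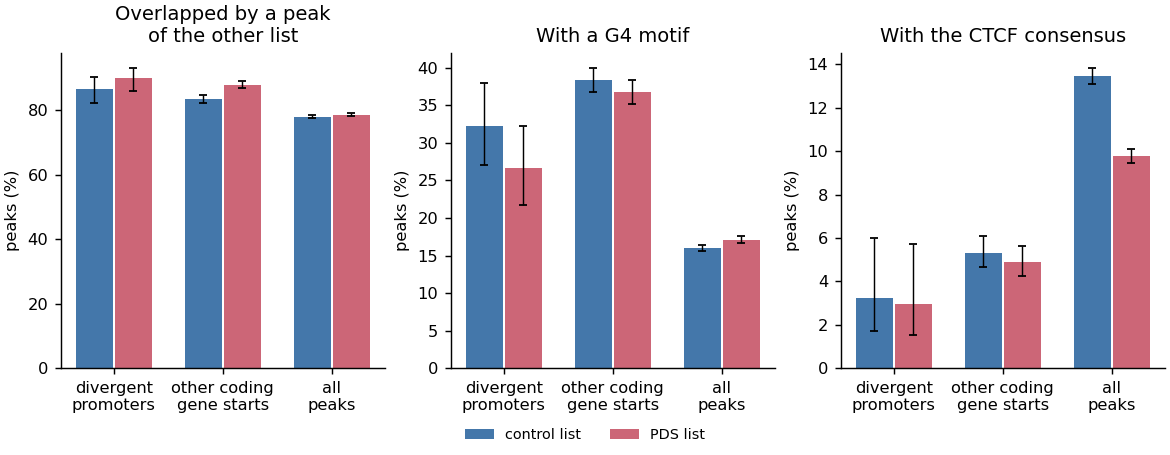
Share of peaks, in percent on the y axes, that overlapped a peak of the other list, held a G4 motif anywhere in the peak or held the CTCF consensus in the central 200 bp, for divergent promoters (279 control and 270 PDS peaks), other coding gene starts (3720 and 3556) and all peaks (33069 and 32893). Bars are the control and PDS lists and error bars Wilson 95% intervals, and G4 motifs are at 32.3% and 26.7% of the peaks at divergent promoters against 16.0% and 17.1% of all peaks.

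The median width of peaks at divergent promoters was 300 bp in both lists. The quartiles were 180 and 480 bp in the control list (range 120 to 2460 bp) and 150 and 500 bp in the PDS list (range 100 to 1300 bp). All peaks had medians of 360 and 300 bp, and peaks at other coding gene starts of 360 and 350 bp. Widths of at least 1 kb were found for 9 control peaks (3.23%) and 7 PDS peaks (2.59%), against 4.10% and 6.73% of all peaks. Widths came in steps of 60 bp (control) and 50 bp (PDS) with minima of 120 and 100 bp, so small differences in width between the lists cannot be told apart from the grid of the caller.

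The widest peaks lay at 4 promoters. The widest was the control peak at RP9, a gene linked to retinitis pigmentosa, and BBS9, a subunit of the BBSome of cilia, at chr7:33147061-33149520, 2460 bp long with a fold of 26.9. The PDS peak there was 1250 bp wide with a fold of 17.0, and both peaks covered both starts. At C1orf232/ZNF593 the control peak of 1260 bp (fold 49.6) and the PDS peak of 1300 bp (fold 21.4) were nearly equal in width. At UBQLN4, a ubiquilin that takes proteins to the proteasome, and LAMTOR2, a subunit of the Ragulator complex of lysosomes, 1 control peak of 1200 bp (fold 34.6) stood against 2 PDS peaks of 500 and 600 bp (folds 6.79 and 12.9). At the histone pair H2AC25/H2BC26 the control peaks of 480 and 1140 bp had folds of 29.99 and 23.9, and the PDS peaks of 750 and 200 bp folds of 10.6 and 12.8. The extent of the peaks differed between the lists at 3 of these 4 promoters, and their folds were far below the highest of either list.

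Most peak centres lay inside a gene of the pair, not between the starts. The median distance of the peak centre to the nearer start was 182.5 bp for control peaks and 214 bp for PDS peaks. Centres lay between the starts for 47 control peaks (16.8%) and 47 PDS peaks (17.4%), in an exon of the nearer gene for 143 and 129, and in an intron for 89 and 93. The gap itself is short, with a median of 131 bp, and these counts were not scaled by the length of each kind of sequence. Both starts were covered by 59 control peaks (21.1%) and 45 PDS peaks (16.7%), 1 start by 82 and 66, and none by 138 and 159. A peak over both starts has to span at least the distance between them, and the part of this in the widths was not tested. Peaks over both starts were wider, with medians of 480 and 500 bp against 240 and 200 bp for peaks over no start. They also stood higher in their list by fold, at a median percentile of 79.7 (control) and 62.4 (PDS), against 36.5 and 27.9. Peaks over 1 start lay at 61.4 and 65.7, so in the PDS list they stood above those over both starts. Of the 45 PDS peaks over both starts all overlapped a control peak, and of the 59 control peaks 89.8% overlapped a PDS peak.

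**Figure D3:**
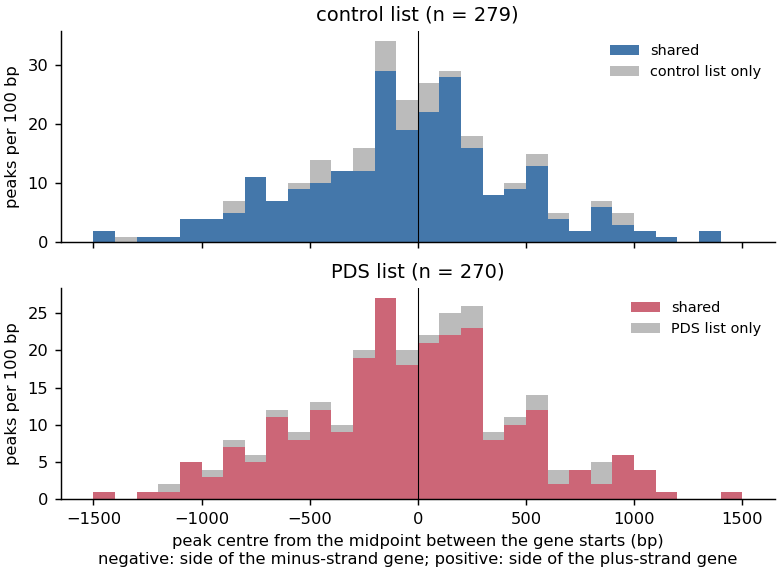
Number of peaks per 100 bp on the y axes by the position of the peak centre relative to the midpoint between the gene starts, in bp on the x axis, with the minus-strand gene on the negative side. The upper panel holds the 279 control peaks and the lower the 270 PDS peaks, with peaks of 1 list only in grey, and the median distance from the midpoint is 274 and 283 bp.

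Folds are over the IgG of the same condition, and whether the control folds rest on IgG samples other than the 1 analysed here is not known, so peaks were compared by their percentile within their list, where 100 is the highest fold or the smallest p-value. The median fold at divergent promoters was 27.9 for control peaks and 14.7 for PDS peaks, beside 26.5 and 16.7 over all peaks. By fold the median percentile was 54.1 in the control list (interval 47.8 to 60.4) and 37.01 in the PDS list (29.9 to 43.4). Ranked by p-value it was 53.7 and 57.9, so the lower place in the PDS list was found by fold alone. At other coding gene starts the medians were 59.4 and 40.2 by fold and 60.6 and 68.0 by p-value. The 10% of peaks with the highest folds held 45 control peaks of divergent promoters (16.1%) and 31 PDS peaks (11.5%), and the lowest 10% held 25 (8.96%) and 43 (15.9%).

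By the mean of both fold percentiles, the strongest shared peaks lay at RRP9/PARP3 and NOP10/NUTM1. At RRP9, a component of the U3 small nucleolar ribonucleoprotein, and PARP3, an ADP-ribosyltransferase of DNA repair, the control peak at chr3:51976081-51976440 had a fold of 121.8, rank 93 of 33094. The PDS peak there had a fold of 75.01, rank 35 of 32917, and its centre lay between the starts like that of the control peak. Ranks and percentiles count the peaks of a list on any sequence. At NOP10, a component of H/ACA ribonucleoproteins, and NUTM1, a gene normally expressed in testis, the folds were 91.2 (rank 396) and 69.9 (rank 49). Both promoters ranked within the top 2% of both lists, and their central 200 bp differed in GC content, 68.5% at RRP9/PARP3 and 49.0% at NOP10/NUTM1.

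The next 4 promoters by this order were high in both lists too. The fold percentile was higher in the PDS list at HNRNPDL/ENOPH1 (control 98.8, PDS 99.7) and NMBR/VTA1 (98.1 and 98.5). It was lower there at TPR/ODR4 (99.5 and 99.2) and ATP6V1D/EIF2S1 (99.7 and 98.5). At TPR, a protein of the nuclear pore basket, and ODR4, at chr1:186344461-186345060 in the control list, the folds were 107.8 (control) and 50.3 (PDS), and the peaks of 600 and 700 bp covered both starts. At HNRNPDL, an RNA-binding protein, and ENOPH1, an enzyme of methionine salvage, the folds were 91.3 and 59.3, and the peak, at chr4:83350561-83350800 in the control list, was centred 934.5 bp inside HNRNPDL. At ATP6V1D, a subunit of the vacuolar proton pump, and EIF2S1, the alpha subunit of the initiation factor eIF2, the folds were 116.7 and 44.9. At NMBR, the receptor of neuromedin B, and VTA1, a protein of the sorting of multivesicular bodies, they were 80.9 and 44.9. Of these 6 promoters only that of TPR/ODR4 had a G4 motif in its peaks and only that of ATP6V1D/EIF2S1 the consensus in the central 200 bp.

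Peaks that overlapped none of the other list included a few of high fold. The control peak at IFT25, a subunit of the intraflagellar transport complex, and LRRC42 had a fold of 53.3, percentile 90.4, and the nearest PDS peak was 2180 bp away. It was 300 bp wide, lay in LRRC42 and held 4 G4 motifs, 1 of which is printed above. The control peak at MAGT1, a protein of magnesium transport, and COX7B, a subunit of cytochrome c oxidase, had a fold of 43.0, percentile 82.3, and no G4 motif. At SMIM7/TMEM38A and LPXN/ZFP91 the control folds were 36.4 and 36.3, percentiles 73.6 and 73.4. By p-value all 4 stood lower, at percentiles 53.2, 32.9, 37.7 and 34.8.

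The strongest PDS peaks without a control partner lay at fold percentiles of 44.5 to 74.1. At STX8, a SNARE protein of endosomes, and CFAP52, a protein of motile cilia, the PDS peak was 100 bp wide with a fold of 22.1, percentile 74.1. Its percentile by p-value was 5.96. At SNRNP40, a protein of the U5 small nuclear ribonucleoprotein, and ZCCHC17 the fold was 19.3, percentile 63.2. At COPE, a subunit of the COPI coat, and DDX49, an RNA helicase, it was 18.6, percentile 60.2, and at the histone pair H2BC13/H2AC13 it was 15.9, percentile 44.5. None of these 4 peaks held a G4 motif or the consensus, and the nearest control peak was between 3080 and 151660 bp away.

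G4 motifs lay in a minority of the peaks at divergent promoters. A motif lay in 90 of 279 control peaks (32.3%, 27.0 to 38.0%), against 16.0% of all control peaks, and in 72 of 270 PDS peaks (26.7%, 21.7 to 32.2%), against 17.1% of all PDS peaks. At other coding gene starts the shares were 38.4% and 36.8%. The median GC content of the central 200 bp was 66.0% and 65.0% at divergent promoters and 52.0% and 53.5% over all peaks, and its part in these shares was not tested. At other coding starts it was 67.0% and 65.0%. Peaks with a motif were wider than those without, 420 against 300 bp in the control list and 450 against 250 bp in the PDS list, and the part of the width was not tested either. Among peaks of the PDS list alone, 2 of 27 (7.41%) held a motif, and among those of the control list alone 10 of 37 (27.0%).

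The CTCF consensus, a sequence of 15 positions derived from exonuclease mapping of CTCF sites, was searched on both strands in the central 200 bp. It was present without mismatch in 9 of 279 control peaks (3.23%, 1.71 to 6.02%), against 13.5% of all control peaks, and in 8 of 270 PDS peaks (2.96%, 1.51 to 5.74%), against 9.76% of all PDS peaks. With at most 1 mismatch it was in 71 (25.4%), against 43.2% of all control peaks, and in 69 (25.6%), against 33.9% of all PDS peaks. At other coding gene starts the exact sequence was in 5.32% and 4.89%. The exact matches comprised 11 sites at 10 promoters, 4 of them on the plus and 7 on the minus strand, and 9 lay within 250 bp of a gene start. At 8 of the 10 promoters both lists had a peak, and at 7 the site lay in the central 200 bp in both.

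These sites are given in their own orientation, with positions where the consensus names 1 or 2 letters in capitals and those open to any base in lower case, to show where they lie relative to the genes. Their likeness to each other is set by the search. They were listed after the values were seen, and 1 site, at RBIS/CA13, is named only.
ATP6V1D/EIF2S1, chr14:67826798-67826812, minus strand: cCAtgAGAtGGCGCT
LGI4/FXYD7, chr19:35634008-35634022, plus strand: cCAgcAGGgGGCGCC
PCBP4/ABHD14A-ACY1, chr3:52008110-52008124, minus strand: cCAcaAGAgGGCGCC
ALKBH4/LRWD1, chr7:102105412-102105426, minus strand: cCAggAGGcGGCGCC
SAXO1/RRAGA, chr9:19049165-19049179, plus strand: cCAcgAGAgGGCAGC
HES4/ISG15, chr1:937404-937418, minus strand: gCAggAGGcGGCGGC
HES4/ISG15, chr1:937407-937421, minus strand: cCAgcAGGaGGCGGC
HSF2BP/RRP1B, chr21:45079430-45079444, minus strand: aCAgaAGGcGGCGGC
AZI2/ENSG00000283563, chr3:28390746-28390760, minus strand: gCAccAGAgGGCGCC
ENSG00000286112/LRRC8A, chr9:131644433-131644447, plus strand: aCAaaAGGaGGCGCC
The pair of sites at HES4/ISG15 overlap each other, and the peak at HSF2BP/RRP1B was in the control list alone and that at LRRC8A in the PDS list alone. The peak at AZI2 was in both lists, with the site in the central 200 bp of the control peak but not of the PDS peak. The peaks with a site spanned nearly the whole range of folds. The percentile was 99.7 (control) and 98.5 (PDS) at ATP6V1D/EIF2S1, and 98.0 and 77.0 at PCBP4, an RNA-binding protein, and ABHD14A-ACY1, a readthrough gene that overlaps its parts. It was 83.1 and 90.9 at SAXO1/RRAGA, the latter a GTPase that brings mTORC1 to lysosomes, 43.8 and 58.0 at ALKBH4/LRWD1, and 42.9 and 35.0 at LGI4/FXYD7. The site at HSF2BP/RRP1B lay 4 bp from the start of RRP1B in a control peak at percentile 0.43. The site at RBIS/CA13 was in peaks at percentiles 89.3 and 99.9.

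Peaks that overlapped one to one and lay at divergent promoters in both lists numbered 229. The PDS percentile by fold was below the control percentile for 146 of them (63.8%), with a median difference, PDS minus control, of -6.41 points (interval -11.2 to -3.75). By p-value it was below for 93 (40.6%), and the median difference was 2.25 points (0.58 to 5.48), so the direction depended on the rank used. Over all 24616 one-to-one peaks the medians were 0.68 by fold and 2.30 by p-value, and over the 2955 at other coding starts -12.0 and 4.13. The ranks moved down by fold and up by p-value for 99 of the 229 peaks, down by both for 47, up by both for 37 and up by fold but down by p-value for 46. Rank correlations (Spearman's rho) between the lists were 0.55 for folds, 0.84 for p-values and 0.84 for widths across the 229 peaks. They were 0.54, 0.84 and 0.83 across the 2955 peaks at other coding starts, and 0.42, 0.80 and 0.76 across all 24616. Each list is 1 joint call per condition, so these values do not compare replicates.

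The fold ranks were also listed by the presence of a G4 motif. Among the 77 one-to-one peaks with a motif in either list, 62 had a lower fold percentile in the PDS list (80.5%), with a median difference of -19.7 points (-32.8 to -9.49). Among the 152 without one, 84 did (55.3%), with a median difference of -2.47 points (-6.02 to 0.87). Among the 1655 one-to-one peaks without a motif at other coding starts, 1055 did (63.7%), with a median difference of -6.71 points (-8.55 to -4.86). Among all 2955 one-to-one peaks there, with or without a motif, 2061 did (69.7%), with a median difference of -12.0 points (-13.5 to -10.6). Those with a motif at other coding starts were not listed apart, so the 77 have no matching group here. By p-value the medians at divergent promoters were 0.71 and 3.40 points. The difference between peaks with and without a motif was not tested. The GC content of the peaks moved with the motif, at medians of 70.2% and 63.2%, and its part in the difference was not tested. The PDS peak was the wider one in 93 of the 229 cases (40.6%) and the control peak in 132 (57.6%), with a median difference of -20 bp, while over all one-to-one peaks these shares were 49.6% and 46.9%. At other coding starts they were 45.4% and 50.4%, with a median difference of -10 bp.

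**Figure D4:**
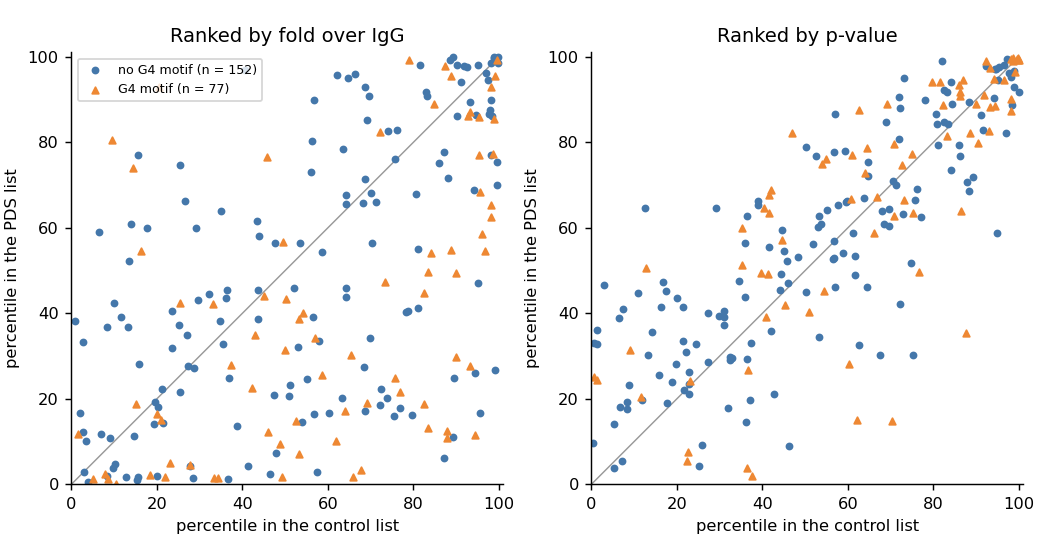
Percentile of each of the 229 one-to-one peaks in the PDS list on the y axis against its percentile in the control list on the x axis, ranked by fold over IgG on the left and by p-value on the right, where 100 is the strongest peak and the line marks equal percentiles. Triangles are the 77 peaks with a G4 motif, of which 62 are below the line by fold, and circles the 152 without one, of which 84 are below.

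The peaks whose rank rose by both measures were ordered by the smaller of their shifts by fold and by p-value. The first was at ACLY, the cytosolic enzyme that makes acetyl-CoA from citrate, and ODAD4, a protein of the docking of outer dynein arms. There the percentile by fold was 66.3 in the control list (fold 32.6) and 96.0 in the PDS list (fold 36.6), and by p-value 29.2 and 64.5. At TMEM127, a membrane protein of endosomes, and CIAO1, a protein of cytosolic iron-sulfur cluster assembly, it was 35.0 and 63.9 by fold. At ZBTB4, a zinc finger protein that binds methylated DNA, and POLR2A, the largest subunit of RNA polymerase II, it was 11.6 and 39.2, and at HSDL1/DNAAF1 25.5 and 42.3. These peaks were between 100 and 360 bp wide, and only those at HSDL1/DNAAF1 held a G4 motif. They are single values in 1 list per condition and were chosen for this shift.

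Ordered in the same way, the peaks whose rank fell by both measures were led by that at CCDC148/PKP4, the latter a plakophilin of cell junctions. The percentile by fold was 53.2 in the control list (fold 27.6) and 6.99 in the PDS list (fold 8.03), and by p-value 70.3 and 14.8. The peak was 180 bp wide in the control list with 2 G4 motifs and 100 bp in the PDS list with 1. At FBXO42, an F-box protein, and SZRD1, with the control peak at chr1:16678921-16679280, the fold percentile was 95.6 and 16.6 (folds 66.6 and 10.6), with no motif. At MCM3AP, a protein of mRNA export, and YBEY, a ribonuclease, it was 65.8 and 1.59, and at MBOAT7, an acyltransferase of lysophosphatidylinositol, and TSEN34, a subunit of the tRNA splicing endonuclease, 65.3 and 30.2. At the last 2 promoters the control peak held a G4 motif and the PDS peak, 100 bp wide at both, did not.

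Well-known divergent gene pairs were looked up by name, and 14 of the 24 listed met the rule for a pair. A control peak lay at 5 of the 14 and a PDS peak at 4, beside 31.4% and 29.96% of all 821 promoters. NPAT, a regulator of histone gene transcription, and ATM, the kinase of the response to DNA breaks, had a control peak at chr11:108093601-108094020 with a fold of 42.2, percentile 81.5, and a PDS peak with a fold of 42.1, percentile 98.0. TK1, thymidine kinase, and AFMID, with the control peak at chr17:76183081-76183440, had folds of 76.6 and 33.9, percentiles 97.5 and 94.5. SARS2/MRPS12, of mitochondrial translation, had folds of 28.7 and 29.3, percentiles 56.7 and 90.0. All 6 of these peaks overlapped their partner, and none held a G4 motif or the consensus.

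PPAT/PAICS, which encode enzymes of purine synthesis, had a control peak only, 180 bp wide with a fold of 8.43 at percentile 5.10. Neither list had a peak at PRKDC/MCM4, TMEM258/FEN1, TEX14/RAD51C or RECQL/GOLT1B of DNA repair and replication, at the collagen IV pairs COL4A4/COL4A3 and COL4A6/COL4A5, or at SIRT3/PSMD13, AURKA/CSTF1 and ACACA/TADA2A. Of the 10 pairs that missed the rule, 5 had overlapping first ends and 5 had starts further apart in the gene records used. Among the former, SURF1/SURF2 had 1 peak within 1 kb in each list.

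Gene families at divergent promoters were counted by the prefix of the gene symbol, beside 31.4% and 29.96% occupancy over all 821 promoters. Of the 16 promoters of mitochondrial ribosomal proteins 5 had a peak in both lists, among them MRPL46/MRPS11, where both genes encode such a protein, with folds of 27.3 and 16.1. Of the 15 promoters of respiratory complex I genes none had a control peak and 1 a PDS peak, at TSSK6/NDUFA13, with 2 peaks 100 bp wide. Of the 13 promoters of cytosolic ribosomal proteins 3 had peaks in both lists, at BTK/RPL36A, RPL35/ARPC5L and RPL36AL/MGAT2, and RPL9/LIAS had a PDS peak alone. Of the 11 histone promoters 2 had control peaks and 3 had PDS peaks. Genes of mitochondrial import (TIMM8B/SDHD) and of the proteasome (PSMA1/PDE3B) each had 1 occupied promoter of 6, in both lists.

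Among promoters counted by the prefixes of DNA replication genes 3 of 11 had peaks in both lists, at ORC1/PRPF38A, VPS35/ORC6 and MCM3AP/YBEY, the last of which falls in by its prefix alone. The count is set by these prefixes, which leave out PCNA/CDS2 and XPO5/POLH, where both lists had a peak. Promoters without a peak that the prefixes leave out were not counted. ORC1, the largest subunit of the origin recognition complex, and PRPF38A, a splicing factor, had folds of 54.4 and 33.4, percentiles 91.1 and 94.1. The genes of the Fanconi anaemia and homologous recombination list had peaks in both lists at 1 of 6 promoters. Zinc finger genes had a control peak at 8 of 29 promoters and a PDS peak at 5, all of which also had a control peak. The families named only by structure were transmembrane proteins, with 9 of 27 in each list and 8 in both, and coiled-coil domain proteins, with 7 of 11 in both lists. The latter included CCDC127/SDHA, a promoter shared with a subunit of succinate dehydrogenase, with folds of 16.7 and 10.0, and CCDC115/IMP4, shared with a ribosome biogenesis factor, with folds of 21.7 and 5.92. These families are small, were chosen with earlier results known, and nothing is called particular to them.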

How the data were processed

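Per the labels and the study's methods, reads were aligned to hg19 with Bowtie2 2.2.3, reads with a mapping quality under 30 and duplicates were removed, and PePr called peaks jointly on both replicates of a condition over IgG. The labels describe single-end and the methods paired-end reads. The submitters' processing notes also name SAMtools and deepTools 2.0. The deposited score and adjusted p-value of a peak were not used. The fold (a ratio over IgG) and the p-value of each peak were computed by the authors and used as deposited, to rank peaks within a list. No table column was left without a sample or group.

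Gene starts came from the gene records of GENCODE release 44 mapped to GRCh37, which is not the authors' annotation. Head-to-head pairs, members, overlaps of at least 1 bp, G4 motifs in the whole peak and the consensus in the central 200 bp were found as described in the report. Shares have Wilson 95% intervals and medians order-statistic 95% intervals. No test was run, because neither list holds replicates. Named genes were the 6 strongest shared peaks, the 4 widest, the 4 strongest of 1 list only, the 4 largest shifts each way that had the same sign by fold and by p-value, and the well-known pairs, all by a written rule, with further examples of the families. Some listed items are not reported here. The members, lists and rules were chosen with earlier results of these data known. The family prefixes of histones were extended after the annotation's names had been seen.

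The search was tested on simulated data, where 200 of 200 planted pairs, 150 of 150 members, 120 of 120 shared peaks and 200 of 200 consensus sites were found. For G4 motifs only the pattern was run, on plus-strand motifs, and it found 200 of 200, so the genome scan itself was not tested. The planted items were built to the rules of the search, so full recovery shows only that the code follows its rules. Sequences were read with samtools 1.23.1 and pyfaidx 0.9.0.4, tables with pandas 2.3.3 and numpy 2.4.6, intervals came from scipy 1.17.1 and plots from matplotlib 3.10.9, all under Python 3.11.15. Alternatives varied the window, the pair distance and overlap of genes, the stringency, merging and overlap of peaks, the rank and the motifs.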

Additional observations from a re-analysis of the deposited data

How the results depend on the processing

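Results were recomputed 91 times under other settings, and 64 of these lay inside the interval of the value in the report, 26 outside it and 1 had the opposite sign. The cause was not tested except where the construction sets it, as for windows and stringency. With centres within 500 bp of a start, occupancy was 25.5% (control), 24.1% (PDS) and 22.05% (both lists), within 2 kb 36.1%, 34.3% and 32.2%, and with the 50% of peaks of smallest p-values 17.7%, 17.9% and 15.3%. In that stronger 50% the median widths were 420 and 450 bp, the G4 shares 40.3% and 37.1%, and 85.4% of PDS peaks were shared. An overlap of 50% of both peaks gave shared shares of 77.4% and 79.3%, centres at most 100 bp apart 75.6% and 77.8%, and a gap of at most 1 kb 93.3% in the PDS list. Ranked by p-value, the median PDS percentile was 57.9, and the median shift of one-to-one peaks reversed to 2.25 points. G4 loops of 1 to 12 nt gave shares of 48.4% and 43.0%, and the central 200 bp 21.9% and 19.3%. With at most 1 mismatch the consensus shares were 25.4% and 25.6%. No paired analysis was possible because the replicates of a condition were called together into 1 list, and for the same reason no replicate could be left out. The read depth is unknown, so a promoter without a peak is not shown to lack CTCF. Allowing overlapping first ends gave 1285 promoters and starts at most 500 bp apart 755, and under neither did occupancy, sharing, width, fold percentile, G4 share or consensus share leave its interval. The one-to-one shifts, positions and shares per gene start were not recomputed under these 2.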

Other observations

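The rule ends at 1 kb from a start. Just inside, over 900 and up to 1000 bp away, lay 11 control peaks and 12 PDS peaks, of which 9 and 11 were shared, and just outside, over 1000 and up to 1100 bp away, lay 13 and 10, of which 11 and 9 were shared. Their median fold percentiles were 50.2 and 47.8 inside, and 39.0 and 35.9 outside.

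Occupancy was also listed by chromosome for those with at least 30 promoters. It was highest on chromosome 15, with control peaks at 15 of 30 promoters (50.0%) and PDS peaks at 14 (46.7%), and lowest on chromosome 12, with 10 of 53 (18.9%) and 9 (17.0%). On chromosome 1, with the most promoters, it was 29 of 73 (39.7%) and 32 (43.8%). The chromosomes were named after their values were seen.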
